A study of Mus musculus with 24 samples.

Results

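The major urinary protein genes examined here were 8 genes of the mouse Mup family: Mup2, Mup3, Mup7, Mup9, Mup12, Mup15, Mup17 and Mup20. They were picked by gene name from a count table of 18314 genes that held 22 Mup genes in all, with the low counts of several of them in livers on a high-fat diet already known. The difference between high-fat diet and normal diet is therefore what chose them, and it is given below as a description without a test. All 8 passed the filter on low counts.

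Major urinary proteins are small lipocalins, barrel-shaped carriers that hold volatile pheromones. Hepatocytes make them in large amounts, and they pass through the blood into the urine, where they release scent slowly and label an individual. Their transcription is a known readout of pulsatile growth hormone acting through the growth hormone receptor and STAT5b, with testosterone, thyroid hormone and glucocorticoids acting as further inputs, and it is much higher in males. The genes lie in a cluster on chromosome 4, in which the central genes are near-identical copies and Mup3 and Mup20 are among the more divergent copies.

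The study used male wild-type C57BL/6 mice with diet-induced metabolic dysfunction-associated fatty liver disease, 9 per group. The groups with long RNA libraries were a control group on normal diet, an HFD group on high-fat diet, and an HFD plus HQHF group that received the high-fat diet and the herbal Huatanqushihuoxue Formula (HQHF) by gavage after 12 weeks of diet. The labels of the sequenced livers do not give the dose of HQHF or the age of the mice. Total RNA depleted of ribosomal RNA was sequenced in 12 libraries with 33380925 to 46454404 counts each. Control 2 and HQHF 3 (replicate numbers as in the labels) stood apart: they held 40 and 3 reads of the 8 genes and 46.4 and 0.743 CPM (counts scaled to the library total) of albumin, a marker of hepatocytes, against 4543 and 1254 CPM of Adipoq, a marker of fat cells. These libraries go against their liver label and were left out, which leaves 3 control, 4 HFD and 3 HQHF libraries. Each library carried a batch code of its own, so a batch effect cannot be told apart from the difference between samples.

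Since the genes differed in the same direction, the sequence before their start sites is shown for Mup15 and Mup17, which had the widest gap between diets, and for Mup3, a divergent copy with a narrower gap. RefSeq start sites (GRCm38.p6) were found for 6 of the 8 genes, and Mup12 and Mup20 were not matched. Each line gives the 250 bases before the start on the minus strand, 5′ to 3′, with the TATA box in capitals. They lie at chr4:61439705-61439954 for Mup15, chr4:61595833-61596082 for Mup17 and chr4:62087318-62087567 for Mup3.
Mup15: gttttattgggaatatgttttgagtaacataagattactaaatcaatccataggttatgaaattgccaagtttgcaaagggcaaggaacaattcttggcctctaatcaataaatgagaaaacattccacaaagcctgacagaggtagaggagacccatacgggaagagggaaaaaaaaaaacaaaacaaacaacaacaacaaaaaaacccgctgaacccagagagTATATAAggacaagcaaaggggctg
Mup17: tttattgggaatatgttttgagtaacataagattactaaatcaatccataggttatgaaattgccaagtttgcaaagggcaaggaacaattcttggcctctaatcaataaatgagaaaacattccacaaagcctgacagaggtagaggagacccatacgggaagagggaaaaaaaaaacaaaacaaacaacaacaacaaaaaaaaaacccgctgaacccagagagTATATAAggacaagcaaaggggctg
Mup3: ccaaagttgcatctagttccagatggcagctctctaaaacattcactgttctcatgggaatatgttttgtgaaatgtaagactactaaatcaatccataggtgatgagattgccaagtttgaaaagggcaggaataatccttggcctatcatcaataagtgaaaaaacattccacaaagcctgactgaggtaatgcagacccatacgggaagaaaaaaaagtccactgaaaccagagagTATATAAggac
Windows of 300 bases (the 250 shown and the next 50) were aligned, and those of Mup15 and Mup17 were 98.7% identical over 301 columns. Mup3 was 76.8% to 84.1% identical to the other 5 windows over the aligned columns, and the other windows were 97.0% to 98.7% identical to each other. An A-rich stretch shortly upstream of the TATA box measured 13 bases in Mup3 and 45 to 50 bases in Mup2, Mup9, Mup15 and Mup17. The TATA box TATATAA was found in 5 of the 6 windows, all but Mup7, against 3.24% of all 32851 RefSeq windows of this length. The Mup7 window aligned to those of Mup2, Mup9, Mup15 and Mup17 over only 163 to 173 columns. It ended upstream of the stretch that holds the TATA box in those windows, so the box could not be found there. The STAT site TTCNNNGAA was in 0 of the 6 windows and in 8.3% of all windows. The CCAAT box was in 3 of 6 (Mup7, Mup15 and Mup17; 37.4% of all), and TGTTCT, the glucocorticoid receptor half-site, was in Mup3 alone (19.0% of all). All 4 motifs were searched on both strands, no 2 matches overlapped within a window, and each is a letter match only. The CCAAT match read attgg on the strand shown, just before gaatatg. The windows of Mup2 and Mup9 began within or just after these letters, so their lack of this match comes from where the windows start. The TGTTCT match of Mup3 also lay shortly before gaatatg. The windows of Mup2, Mup9, Mup15 and Mup17 began within or after that position, so it could not be matched there. Only the Mup7 window covered it, and read tgtttt.

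In the livers on high-fat diet the scaled levels of 7 of the 8 genes lay below every control library. In those given HQHF as well, the scaled levels of all 8 lay above every HFD library. Among all 13832 tested genes, 15.9% lay lower without overlap in HFD than in control and 13.5% lay higher without overlap in HQHF than in HFD. The former count repeats the contrast that chose the genes, the latter shares its HFD libraries, and nothing is read from either. Levels are given in CPM scaled by TMM, a scaling that sets the bulk of genes equal between libraries. Scaled by library totals instead, 7 of the 8 genes lay above every HFD library in HQHF, and Mup20 overlapped. Levels of different genes are not compared, because the counts are not divided by length.

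Mup20 encodes darcin, the male pheromone protein that draws females to a scent mark. Its level was 6497, 5331 and 3678 CPM in control 1, 3 and 4, and 3687, 3116, 1128 and 534.5 CPM in HFD 1 to 4. HQHF 1, 2 and 4 had 8791, 4446 and 4109 CPM. Only for Mup20 did the HFD and control libraries overlap, since HFD 1 lay just above control 4 (with DESeq2's size factors they did not overlap). Scaled by library totals, HFD overlapped both control and HQHF for Mup20. The fitted log2 fold change was -1.29 in HFD against control, and 1.45 in HQHF against HFD, the smallest of the 8 genes in both.

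Mup3, the divergent copy shown above, was the most even of the 8 within control and within HQHF. It measured 4406, 4054 and 4002 CPM in control 1, 3 and 4, against 685.5, 485.1, 565.0 and 18.4 CPM in HFD 1 to 4. The HQHF libraries had 4624, 4777 and 3963 CPM. Every HQHF library was close to the control libraries and far above HFD, and within HFD only HFD 4 stood well below the rest. The mean was 4154 ± 220 CPM in control (SD, n = 3), 438.5 ± 292 in HFD (n = 4) and 4454 ± 433 in HQHF (n = 3).

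Mup7, a near-identical central copy, had 13706, 4487 and 4698 CPM in control 1, 3 and 4. It was 191.0, 92.6, 310.9 and 0.241 CPM in HFD 1 to 4, the last from 14 reads of 46454404. HQHF 1, 2 and 4 had 20089, 6695 and 10956 CPM. HQHF 1 and control 1 were the highest libraries of their groups, a feature that Mup2, Mup9, Mup12, Mup15, Mup17 and Mup20 share and Mup3 shares only for control 1.

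Mup15 gave the widest gap. Its level was 3023, 451.0 and 291.4 CPM in control 1, 3 and 4, and 6.45, 1.62, 25.9 and 0.103 CPM in HFD 1 to 4. In HQHF 1, 2 and 4 it was 4978, 561.3 and 2513 CPM. Control 1 lay far above the other control libraries, and HQHF 2 below the other HQHF libraries, yet no HFD library came near any of them.

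Mup17, whose promoter differs little from that of Mup15, had 2925, 260.8 and 229.4 CPM in control 1, 3 and 4. HFD 1 to 4 had 16.7, 3.95, 37.8 and 0.223 CPM, and HQHF 1, 2 and 4 had 4670, 740.1 and 1793 CPM. As for Mup15, HFD 3 was the highest and HFD 4 the lowest of the HFD libraries.

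Mup9, Mup2 and Mup12 behaved alike at the level of libraries. Mup9 ranged from 129.8 to 1246 CPM in control, from 0.602 to 34.8 in HFD and from 327.9 to 2078 in HQHF. Mup2 ranged from 89.6 to 601.6 CPM in control, from 0.430 to 25.7 in HFD and from 136.2 to 1042 in HQHF. Mup12 ranged from 183.0 to 596.1 CPM in control, from 0.0860 to 17.4 in HFD and from 191.8 to 619.7 in HQHF. For none of these 3 genes did the HFD range touch either other group, and HFD 4 gave the lowest value each time.

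**Figure D1:**
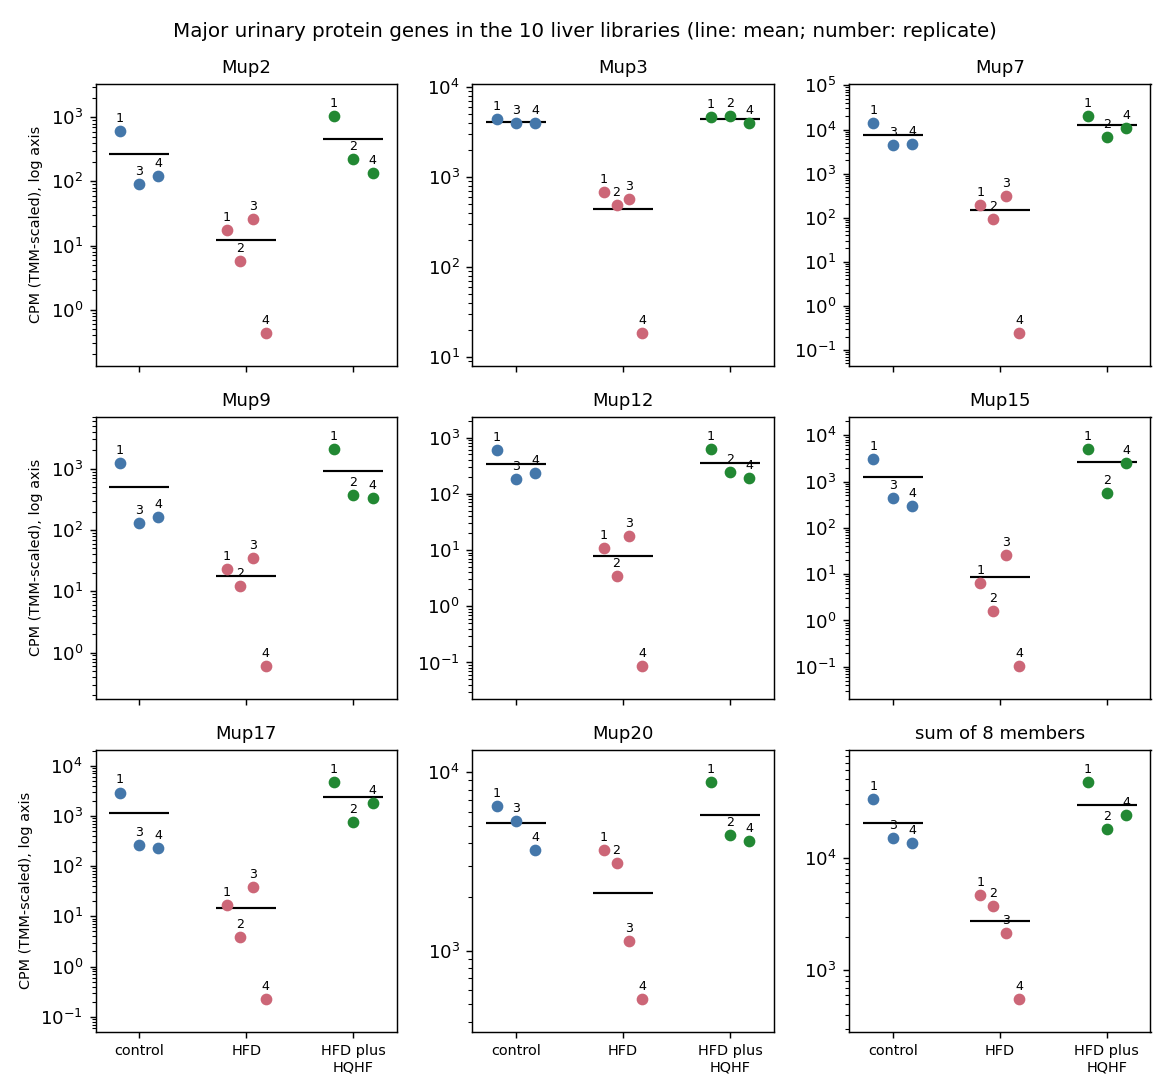
TMM-scaled CPM (log axis) of each of the 8 genes and of their sum in the 10 liver libraries, by group; points are libraries with their replicate number, and lines are group means. Every HFD point lies under all control and HQHF points except for Mup20, where HFD 1 at 3687 CPM lies just over control 4 at 3678 CPM, and HFD 4 is the lowest point in every panel.

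Because reads of near-identical copies can be assigned to the wrong copy, the sum of the 8 genes is also given; reads can still be exchanged with the other 14 copies, which it leaves out. The sum came to 33000, 14986 and 13417 CPM in control 1, 3 and 4. It came to 4639, 3720, 2145 and 554.6 CPM in HFD 1 to 4, and to 46892, 18047 and 23990 CPM in HQHF 1, 2 and 4. No HFD library reached the lowest library of either other group, while control and HQHF overlapped. The HFD mean was 7.40-fold below control (log2 -2.89) and the HQHF mean was 10.7-fold above HFD (log2 3.42). HQHF was 1.45-fold above control (log2 0.53), less than the pooled SD between libraries of 0.71 on the log2 scale. Over all 22 Mup genes the sum was 36581 to 90139 CPM in control, 8577, 5924, 9484 and 586.2 CPM in HFD 1 to 4, and 48221 to 125832 CPM in HQHF. HFD 3 was thus the highest HFD library for the whole family and the third for the 8 genes, and HFD 4 was the lowest for both.

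As a share of all counted reads, the 8 genes took 1.02% to 2.84% in control, 0.0694% to 0.557% in HFD and 1.69% to 3.86% in HQHF. All 22 Mup genes took 2.79% to 7.75%, 0.0734% to 1.34% and 4.08% to 10.4%. Set against albumin within each library, a ratio that no scaling touches, there were 488.1, 145.0 and 140.6 reads of the 8 genes per 1000 Alb reads in control. There were 82.4, 64.9, 86.2 and 9.10 in HFD and 913.9, 292.6 and 316.2 in HQHF, again without overlap between HFD and either other group. In bulk liver, fewer hepatocytes and less Mup RNA per hepatocyte cannot be told apart.

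With HQHF on the high-fat diet, all 8 genes were higher than on the diet alone. The same HFD libraries whose low counts chose the genes are the baseline here, so neither the size of these differences nor any call on them is independent of the choice, and they are given without p-values. The fitted log2 difference was 8.30 for Mup15 (SE 1.82), 7.36 for Mup17 (SE 1.72) and 6.40 for Mup7 (SE 1.54). It was 5.70 for Mup9 (SE 1.41), 5.46 for Mup12 (SE 1.25), 5.25 for Mup2 (SE 1.35) and 3.35 for Mup3 (SE 0.81). Mup20, the darcin gene, had the smallest difference, 1.45 (SE 0.58). The median of the 8 was 5.58, beside -0.07 over all tested genes.

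By edgeR's quasi-likelihood test with Benjamini-Hochberg adjustment over 13832 genes, at an adjusted p under 0.05, 7 of the 8 (all but Mup20) were called higher, where 7.85% of all genes were called higher, 11.1% lower and 18.9% in either direction. For the reason given, nothing is read from that count. It fell to 0 without HQHF 1, to 1 without HQHF 2, to 2 without HFD 2 and to 3 without HFD 1, and it stayed at 7 without any of the other 6 libraries. Without HQHF 1 the fitted differences lay between 1.02 and 7.50, and the sum was 2.93 above HFD on the log2 scale.

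HQHF and control were not told apart. By edgeR's quasi-likelihood test 0 of the 8 genes and 0% of all tested genes (0 of 13832) had an adjusted p under 0.05; 1008 genes had an unadjusted p under 0.05, and DESeq2 called 72 genes. The fitted differences ran from 0.05 for Mup12 (SE 1.16) to 1.10 for Mup15 (SE 1.53), and the groups overlapped for all 8 genes, where 15.1% of all tested genes did not overlap in either direction. Mup20 had the narrowest error, at 0.16 (SE 0.62), followed by Mup3 at 0.10 (SE 0.83). With errors this wide, a difference of several-fold in either direction was not detectable, and the sign for Mup2, Mup9, Mup12 and Mup20 turned without HQHF 1.

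**Figure D2:**
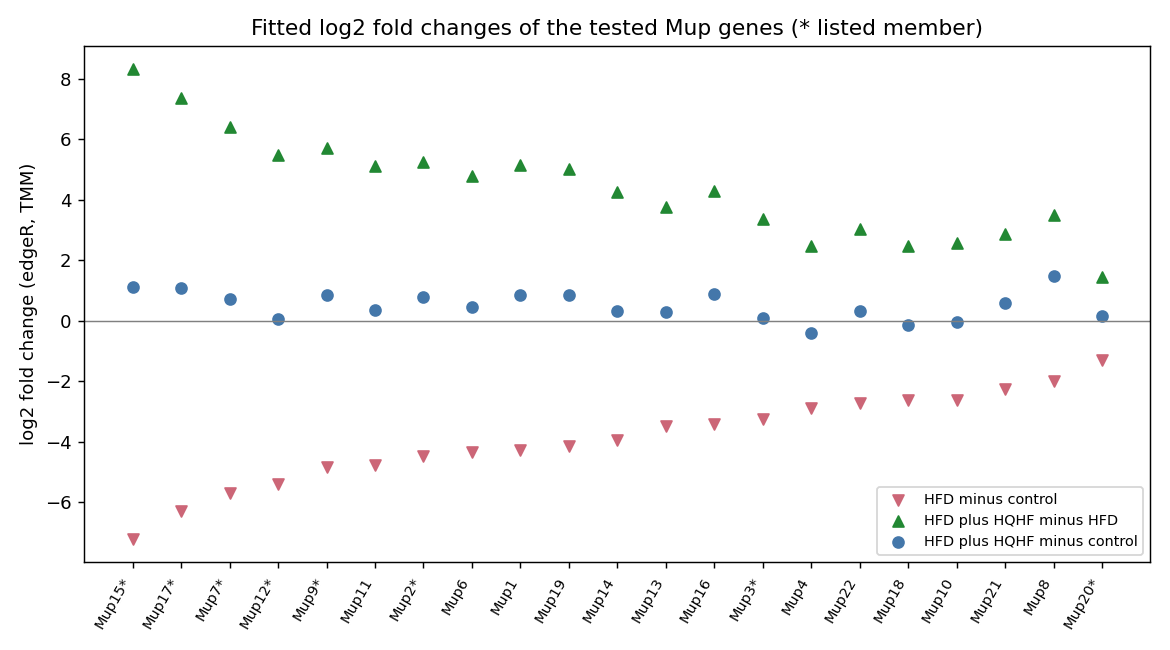
Fitted log2 fold changes (edgeR, TMM) of the 21 tested Mup genes, ordered by the difference between HFD and control; starred genes are the 8 described here, triangles pointing down give HFD minus control, triangles pointing up HFD plus HQHF minus HFD, and circles HFD plus HQHF minus control. All 21 genes lie below 0 in the former and above 0 in the HQHF against HFD comparison, while the circles stay between -0.40 and 1.49.

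The make-up of the Mup reads differed too. Among reads of the 8 genes, Mup20 made up 19.7%, 35.6% and 27.4% in control 1, 3 and 4. In HFD 1 to 4 it made up 79.5%, 83.7%, 52.6% and 96.4%, and in HQHF 1, 2 and 4 it made up 18.7%, 24.6% and 17.1%. Thus most reads of the 8 genes in every HFD library came from the darcin gene. The Mup7 share ran the other way. It was 41.5%, 29.9% and 35.0% in control, 4.12%, 2.49%, 14.5% and 0.0434% in HFD, and 42.8%, 37.1% and 45.7% in HQHF. There were 0.000450 to 0.276 Mup7 reads per Mup20 read in HFD, and 0.842 to 2.67 in the other libraries. These are shares of reads, not of molecules. Against all 22 Mup genes the separation was less complete: Mup20 took 7.21% to 14.0% in control, 6.99% to 8.52% in HQHF, and 43.0%, 52.6%, 11.9% and 91.2% in HFD 1 to 4, so that HFD 3 lay inside the control range.

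**Figure D3:**
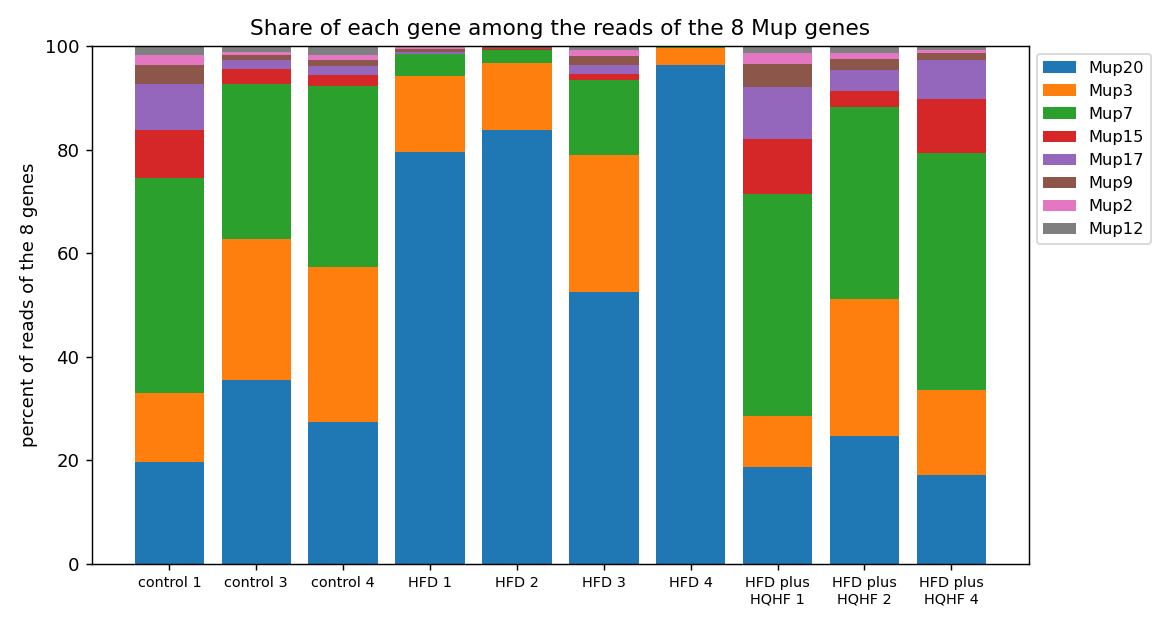
Percent of the reads of the 8 genes that each gene took, stacked to 100 for each of the 10 libraries. Mup20 takes 52.6% to 96.4% in the 4 HFD libraries and 17.1% to 35.6% in the other 6, and Mup7 takes 0.0434% to 14.5% in HFD and 29.9% to 45.7% elsewhere.

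The other 14 Mup genes gave the same direction. Of these, 13 passed the filter and Mup5 did not. Near-identical copies can exchange reads with the 8 genes, and the low HFD counts of several of those were known beforehand. The calls below are therefore not independent of that choice, and nothing is read from their number. In HFD against control the median log2 fold change of the 13 was -3.40 (0.06 over all tested genes), and edgeR's quasi-likelihood test called 3 lower and 0 higher, where 9.89% of all genes were called lower, 16.3% higher and 26.2% in either direction. They were Mup6 (log2 -4.34, adjusted p = 0.00725), Mup11 (log2 -4.77, adjusted p = 0.0332) and Mup4 (log2 -2.88, adjusted p = 0.0240). Mup4 had only 21, 11 and 4 reads in control 1, 3 and 4 and 4, 4, 1 and 0 in HFD 1 to 4, so it passed the filter through the groups where it is high and its HFD values lie about the floor of 3 counts. The Mup6 call was kept when any library was left out, at adjusted p-values up to 0.0290, whereas without control 1 or control 3 Mup6 alone of the 13 was called, and without control 4, HFD 1, HFD 2 or HQHF 2 the count was 2. Without HFD 4 the count was 10 of 13, and without HFD 3 it was 5. In HQHF against HFD 5 of the 13 were called higher, namely Mup6, Mup8, Mup11, Mup16 and Mup19, and the median was 3.77. The Mup6 rise of 4.78 (SE 0.80, adjusted p = 0.00804) held without each library in turn, while the count fell to 1 of 13 without control 3, HFD 2 or any single HQHF library, to 2 without control 4 and to 3 without HFD 1. Without HFD 4 the count was 11, and it was 8 with DESeq2's size factors and 10 by DESeq2. It was 2 with library totals, 1 without the filter and 1 when only those groups were fitted. In HQHF against control 0 of the 13 were called.

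Mup6 was low in absolute reads. It had 732, 239 and 237 reads in control 1, 3 and 4, then 49, 28, 38 and 1 in HFD 1 to 4, and 870, 374 and 379 in HQHF 1, 2 and 4. Mup22, the copy with the most reads in control, ranged from 10459 to 18691 CPM in control, from 21.8 to 4120 in HFD and from 8283 to 23805 in HQHF (log2 -2.72, adjusted p = 0.0887, and 3.05, adjusted p = 0.0765, by the same test). As for the 8 genes, reads of near-identical copies can be split wrongly, so single values are uncertain. Mup19 was read unevenly within HFD, at 1212 CPM in HFD 3 and 2.22 to 191.4 in the others.

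Growth hormone signals through its receptor Ghr, the kinase Jak2 and Stat5b to Igf1, the circulating growth factor, and Socs2, a feedback inhibitor. Igf1 was 498.5, 496.5 and 507.3 CPM in control 1, 3 and 4, then 193.4, 192.4, 253.2 and 276.6 in HFD 1 to 4, and 440.5, 433.3 and 366.3 in HQHF 1, 2 and 4. By edgeR's quasi-likelihood test Igf1 fell by 1.13 in HFD on the log2 scale (SE 0.18, adjusted p = 0.00351) and rose by 0.85 with HQHF (SE 0.18, adjusted p = 0.0128, and 0.0569 without HQHF 1). Scaled by library totals, Igf1 was -0.52 (adjusted p = 0.0563) and 0.30 (adjusted p = 0.260) by that test. Unlike the Mup genes, Igf1 did not have its lowest value in HFD 4, which was the highest of the HFD libraries for Igf1.

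Stat5b, Socs2 and Zhx2, a homeobox regulator of liver genes, were not called with TMM scaling. Stat5b differed by -0.20 in HFD and by 0.11 with HQHF, Socs2 by -0.61 and 0.67, and Zhx2 by -0.06 and 0.12; with library totals the sign turned for Stat5b and Zhx2 in both comparisons and for Socs2 in HFD, and Zhx2 was then called higher in HFD (0.52, adjusted p = 0.0330 by edgeR's quasi-likelihood test). Socs2 was 14.4, 9.33 and 13.2 CPM in control 1, 3 and 4 and 4.18, 2.85, 10.5 and 14.8 in HFD 1 to 4, so that HFD 4, with the lowest Mup reads, had the highest Socs2 of the HFD libraries. Ghr was 88.8 to 208.7 CPM in HFD, under all 3 control libraries (251.7 to 269.8), at log2 -0.71 (adjusted p = 0.0614 by edgeR's quasi-likelihood test). With HQHF Ghr rose by 0.86 (adjusted p = 0.0404), a call lost without HFD 2, HQHF 1, HQHF 2 or any control library, at adjusted p-values from 0.0530 to 0.144. Over the 17 genes of growth hormone and STAT5 signalling, 1 rose and 2 fell in HFD and 3 rose with HQHF under TMM scaling, whereas with library totals 8 rose in HFD (47.1%) and 6 fell with HQHF (35.3%). Library totals called 50.9% of all genes higher in HFD and 47.0% lower with HQHF, so these shares lie under those of all genes. The median was -0.13 in HFD and 0.04 with HQHF, close to all genes. With TMM 5.88% of these 17 genes rose and 11.8% fell in HFD, beside 16.3% and 9.89% of all genes. The 17.6% that rose with HQHF stand beside 7.85%.

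Of 17 transcription regulators linked to Mup expression or liver identity, 1 rose and 5 fell in HFD and 3 rose with HQHF, against 7 that rose in HFD and 2 that fell with HQHF when library totals were used. The 41.2% that rose with library totals lie under the 50.9% of all genes, and the 29.4% that fell with TMM stand beside 9.89%. With TMM the 5.88% that rose in HFD and the 17.6% that rose with HQHF stand beside 16.3% and 7.85%. The 11.8% that fell with HQHF with library totals lie under 47.0%. Ppara, the fatty acid receptor that drives fat oxidation, fell by 1.16 (adjusted p = 0.00571) and rose by 1.09 with HQHF (adjusted p = 0.00954), by edgeR's quasi-likelihood test and without loss of either call when any library was left out. It was 436.2 to 533.1 CPM in control, 182.9 to 311.4 in HFD and 428.2 to 518.8 in HQHF. Nr1h4, the bile acid receptor FXR, fell by 0.86 (adjusted p = 0.00782), and Creb3l3, a fasting-induced regulator, fell by 1.03 (adjusted p = 0.0108). The 1 that rose in HFD with TMM was Srebf1, by 2.755 (adjusted p = 0.0251 by the same test). Its call was lost without control 1, control 3 or control 4 (adjusted p = 0.0519 to 0.0781). Srebf1 was -1.80 with HQHF and did not pass (adjusted p = 0.0949), and its HFD rise was 3.325 with library totals (adjusted p = 0.00860). With library totals Ppara, Nr1h4 and Creb3l3 were still lower, by log2 values of -0.54, -0.25 and -0.41, and none of them passed. The Ppara rise with HQHF was then 0.52 and did not pass either (adjusted p = 0.105 by that test).

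Male-biased liver genes include many that are set by the male pattern of growth hormone pulses. Of 22 tested, 0 rose and 9 fell in HFD, and 7 rose and 0 fell with HQHF; with library totals 7 fell and 7 rose. Their medians were -1.72 and 1.61. Of the male-biased genes 40.9% fell in HFD and 31.8% rose with HQHF, beside 9.89% and 7.85% of all genes. With library totals it was 31.8% and 31.8%, beside 1.11% and 0.99%. Serpina1e, an alpha-1-antitrypsin copy, was 6451, 4858 and 8097 CPM in control 1, 3 and 4, then 790.7, 492.4, 416.7 and 366.6 in HFD 1 to 4, and 12065, 3174 and 7090 in HQHF 1, 2 and 4. It fell by 3.65 (SE 0.45, adjusted p = 0.00150) and rose by 3.85 with HQHF (SE 0.46, adjusted p = 0.00207), by edgeR's quasi-likelihood test, and these calls held without each library and with library totals. C8a, a chain of the complement membrane attack complex, fell by 1.03 (adjusted p = 0.00913) and rose by 1.35 (adjusted p = 0.00517). With library totals C8a was -0.43 in HFD and no longer passed (adjusted p = 0.105), and its rise was 0.79 (adjusted p = 0.0116), by the same edgeR test. Cyp4a12b, a male fatty acid hydroxylase, fell by 2.46 (adjusted p = 0.00853) and was 1.36 higher with HQHF without passing.

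Female-biased genes did not move as a block. Of 25 listed, 16 were tested: 2 rose and 3 fell in HFD, and 0 rose and 2 fell with HQHF, with medians of 0.20 and -0.91. With library totals 2 rose and 0 fell in HFD, and 5 fell with HQHF. With TMM 12.5% rose and 18.8% fell in HFD, beside 16.3% and 9.89% of all genes. The 12.5% that fell with HQHF stand beside 11.1%. With library totals the 12.5% that rose in HFD and the 31.2% that fell with HQHF lie under the 50.9% and 47.0% of all genes. Among the 3 that fell in HFD, Prlr was -0.94 (adjusted p = 0.0324) and Cyp3a41a -2.56 (adjusted p = 0.0418), by edgeR's quasi-likelihood test. Of 10 fits with 1 library left out, the Prlr call was lost in 4 and the Cyp3a41a call in 7. With library totals they were -0.33 and -1.98 and did not pass. Gas6, a secreted ligand of TAM receptors, rose by 1.74 in HFD (adjusted p = 0.0109 by edgeR's quasi-likelihood test) and fell by 1.45 with HQHF (adjusted p = 0.0253), the latter call being lost without any single HQHF library (adjusted p = 0.0707 to 0.0875). Cyp2a4, a female-biased steroid hydroxylase, was 115.7 CPM in HFD 4 and 0.137 to 6.53 in the other HFD libraries, against at most 0.317 in control.

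Other lipocalins, the wider protein family of the Mup genes, were mixed. Of 16 tested, 1 rose and 5 fell in HFD, and 4 rose and 1 fell with HQHF. With library totals 1 rose and 1 fell, then 2 rose and 3 fell. The 31.2% that fell in HFD and the 25% that rose with HQHF with TMM stand beside 9.89% and 7.85% of all genes. With library totals 6.25% rose and 6.25% fell in HFD, beside 50.9% and 1.11% of all genes. With HQHF 12.5% then rose and 18.8% fell, beside 0.99% and 47.0%. Rbp4, the blood carrier of retinol that is also in the list of secreted proteins below, fell by 1.15 (SE 0.19, adjusted p = 0.00420) and rose by 1.01 (SE 0.19, adjusted p = 0.00916). Apom, the carrier of sphingosine-1-phosphate on lipoproteins, fell by 1.00 (adjusted p = 0.00866) and rose by 1.06 (adjusted p = 0.00975), both by edgeR's quasi-likelihood test. These 4 calls held without each library, while with library totals both genes were still lower in HFD, at -0.54 and -0.40, and did not pass there. With HQHF the Rbp4 rise was then 0.45 and was lost (adjusted p = 0.0992 by the same test), and the Apom rise of 0.51 passed (adjusted p = 0.0444).

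Abundant secreted hepatocyte proteins were used as a comparison for the cell type and the export route that Mup proteins share. Of 31, 0 rose and 12 fell in HFD, and 10 rose and 0 fell with HQHF, with medians of -0.70 and 0.70. With library totals 3 rose and 6 fell, then 4 rose. The 38.7% that fell in HFD and the 32.3% that rose with HQHF with TMM stand beside 9.89% and 7.85% of all genes. With library totals 9.68% rose and 19.4% fell in HFD, beside 50.9% and 1.11% of all genes. The 12.9% that then rose with HQHF stand beside 0.99%. Serpina3k fell by 2.45 (adjusted p = 0.00323) and rose by 2.15 (adjusted p = 0.00641), and Serpina1d fell by 1.85 (adjusted p = 0.00192) and rose by 1.28 (adjusted p = 0.00906). Both are serine protease inhibitors of the blood, and all 4 calls held without each library by edgeR's quasi-likelihood test. Alb was not called in any comparison, at -0.83 in HFD (adjusted p = 0.110) and 0.34 with HQHF (adjusted p = 0.538).

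The 10 tested genes nearest the Mup cluster in RefSeq order, 5 on each side, did not follow it as a set. Their medians were -0.07 in HFD and 0.02 with HQHF, 1 rose and 2 fell in HFD, and 2 rose with HQHF; with library totals 5 rose and 1 fell in HFD and 3 fell with HQHF. These 50% and 30% lie under the 50.9% and 47.0% of all genes with that scaling. With TMM the 10% that rose and the 20% that fell in HFD stand beside 16.3% and 9.89% of all genes. The 20% that rose with HQHF stand beside 7.85%. Hsdl2, a peroxisomal dehydrogenase-like protein, fell by 1.57 in HFD (SE 0.26, adjusted p = 0.00383 by edgeR's quasi-likelihood test) and was the gene of the 10 that fell most. It also had the highest log2 difference of the 10 with HQHF, 0.71, which was not called (adjusted p = 0.0687 by that test). With library totals Hsdl2 was -0.94 in HFD (adjusted p = 0.0163) and 0.14 with HQHF (adjusted p = 0.704).

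Among all tested genes outside the family, 8 had the library profile closest to that of the summed Mup genes, measured as the root mean square difference of centred log2 CPM over the 10 libraries. The median of this difference over all genes was 1.95. It was 0.52 for Ces3b, a liver carboxylesterase, 0.54 for Capn8, a calpain protease, 0.57 for Susd4, a complement regulator, 0.62 for Cyp7b1, an oxysterol hydroxylase, and 0.63 for Cd163, the macrophage receptor for haemoglobin. It was 0.66 for Cyp2d9, a male-biased cytochrome, 0.74 for Serpina1e and 0.74 for Gbp2b, a guanylate-binding protein. Susd4, Cyp7b1, Cyp2d9 and Serpina1e are also in the male-biased list. Ces3b averaged 350.4 CPM in control, 45.3 in HFD and 292.7 in HQHF, and Cyp2d9 averaged 1745, 353.4 and 1735. Since they were chosen for this profile, no test is given. All 8 had their lowest value in HFD 4, as the Mup sum did.

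**Figure D4:**
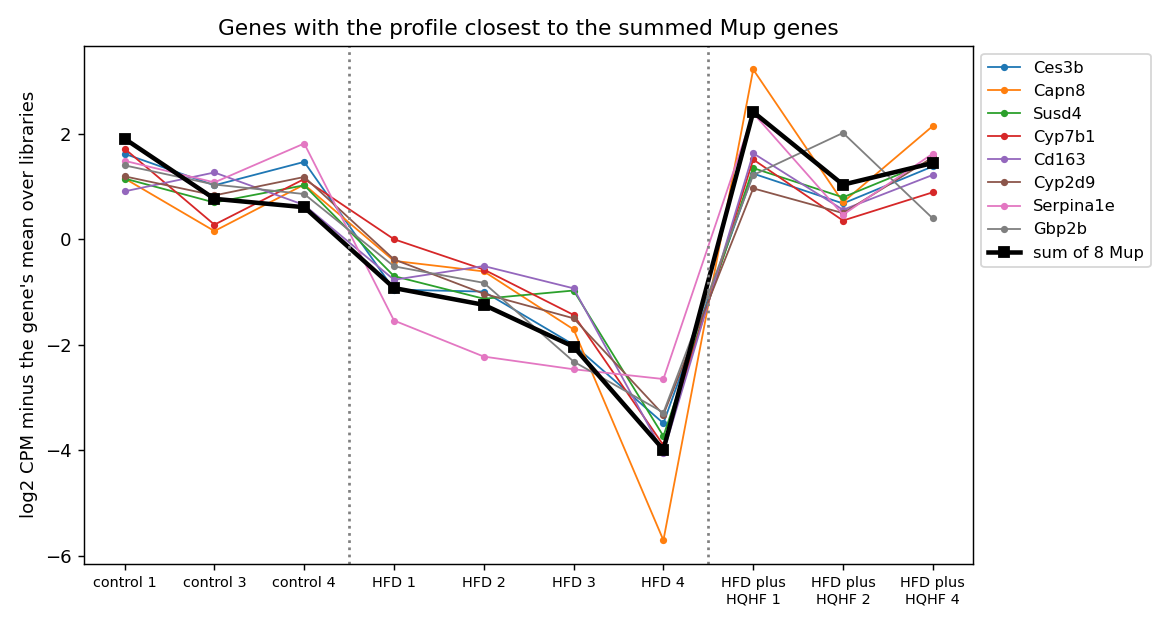
Log2 CPM minus the mean of each gene over the 10 libraries, for the summed 8 Mup genes (black squares) and the 8 genes with the closest profile; lines only join the values of a gene, and replicates within a group have no order. All profiles are low in the 4 HFD libraries and lowest in HFD 4, where Capn8, at 0.0172 CPM from 1 read, lies farthest down; the likeness was measured with a prior count added and the plot has none.

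Other features of the libraries moved with the Mup genes. Markers of monocytes and recruited macrophages (9 genes) summed to 0.00236% to 0.00356% of reads in control, 0.0190% to 0.0761% in HFD and 0.00286% to 0.00322% in HQHF. With TMM 8 of 9 were called higher in HFD and 7 of 9 lower with HQHF, beside 16.3% and 11.1% of all genes. The 8 stellate cell markers summed to 0.0285% to 0.0397%, 0.0581% to 0.127% and 0.0344% to 0.0387%. HFD 4, the library with the fewest Mup reads, held the highest macrophage, stellate and cholangiocyte sums, the last at 0.0465% with 0 of 6 markers at 0. Its hepatocyte markers (15 genes, 0 at 0) summed to 16.0% of reads, within the 13.9% to 17.5% of control. In HFD 3 they summed to 9.16%, below the control range. With TMM 6 of the 15 were called lower in HFD (40%) and 4 higher with HQHF (26.7%), beside 9.89% and 7.85% of all genes. The medians were -0.89 and 0.55. With library totals 6.67% rose and 20% fell in HFD, beside 50.9% and 1.11% of all genes. With HQHF 13.3% then rose, beside 0.99%. Spp1 is in both the macrophage and the cholangiocyte list, so the sums of those lists are not separate. Of the 6 cholangiocyte markers 1 was called higher in HFD (16.7%, beside 16.3% of all genes). The adipocyte sum reached 0.0415% in HFD 3, which had 41.2 CPM of Adipoq, against at most 0.00502% in the other 9 libraries. Pancreatic acinar markers (7 genes) summed to 0.199% of reads in control 1, with 0 of 7 at 0, against at most 0.00241% in the other 9 libraries. Control 1 was the highest control library for all 8 Mup genes, and without it the summed genes were lower in HFD by a log2 ratio of -2.37 in place of -2.89. The part of these differences in the Mup values was not tested. Y-linked genes were read in all 12 libraries, which matches the male label.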

How the data were processed

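Per the submitters' processing notes, HISAT2, RSEM and GRCm39 were used; their roles and versions are not stated in the labels. The authors deposited whole-number read counts per gene, without normalization, for 12 long RNA libraries of mouse liver (TRIzol RNA, Illumina Stranded Total RNA with Ribo-Zero Plus, per the labels' protocols). Control 2 and HQHF 3 were left out of the main analysis, and the small RNA libraries were not used here. Counts were fitted over 10 libraries and 3 groups with edgeR 4.0.16 (R 4.3.3, limma 3.58.1): TMM scaling, filterByExpr by group, robust quasi-likelihood fit and Benjamini-Hochberg adjustment over 13832 genes, called at an adjusted p under 0.05. The script was tested on simulated data. DESeq2 1.42.0, other scalings, filters and left-out libraries were alternatives. No 2 libraries were identical; the labels do not say which mouse each came from, so p-values measure only the spread between these samples.

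The 8 genes and all lists were chosen with earlier results of these data known. Named genes were the 8, the other Mup genes, at most 4 genes per list with the smallest p in each comparison, Ghr, Stat5b, Igf1, Socs2, Zhx2 and Alb, and the 8 nearest profiles (log2 CPM, prior count 2); Cyp2a4 and others with a stray library were named after their values were seen. Promoters were aligned with Biopython 1.88. The files give gene identifiers and no coordinates; printed coordinates are RefSeq's on GRCm38.p6. A result on 1 gene that met the naming rule is not reported here.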

Additional observations from a re-analysis of the deposited data

Results flagged for a closer look

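In 5 cases a single HFD library stood far from the other 3 by Dixon's test at the 95% level, which by chance marks about 1 in 20 groups; 62 groups of 4 values were examined. Of the Mup genes, Mup19 was 1212 CPM in HFD 3 and 2.22 to 191.4 CPM in the others. Mup5 was 0.0392 CPM in HFD 3 and had 0 reads in the other HFD libraries, where 3 counts would be 0.0516 to 0.0552 CPM, so these values are not distinguishable at this depth. Alb was 24870 CPM in HFD 3 against 56320 to 60930 CPM. Egfr, the epidermal growth factor receptor, was 319.4 CPM in HFD 1 against 190.4 to 200 CPM. The female-biased gene Cyp2a4 stood out in HFD 4, at 115.7 CPM against 0.137 to 6.53 CPM.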

How the results depend on the processing

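The sum of the 8 genes kept its direction in all 45 alternative values; with 1 library left out its log2 ratio ranged from -3.25 to -2.37 in HFD against control, 2.93 to 3.79 in HQHF against HFD and 0.04 to 1.06 in HQHF against control. Over all genes, 3625, 2618 and 0 were called in these comparisons. With all 12 libraries, 7 and 1 were called in the former pair, and none of the 8 genes. Scaling by library totals gave 7195 calls in HFD (97.9% higher, against 62.3% with TMM) and 6633 with HQHF (2.07% higher, against 41.5%), and moved the median of all genes to 0.66 and -0.62; the median of the 8 genes was then -4.50 and 4.95. DESeq2 called 72 genes in HQHF against control, and a fit on those groups alone called 1. With 1 library left out the counts ranged from 1568 to 3882, from 633 to 3301 and from 0 to 0. Deviations of same-numbered libraries were little correlated (8 pairs, -0.0542 to 0.119), as were those of 25 pairs with unlike numbers (-0.177 to 0.13). The number was not treated as a pairing in the main fit, and whether it marks shared handling was not tested. With a replicate block 1719 genes were called in HQHF against HFD, among them 5 of the 8 and 2 of the other 13 Mup genes. Mup20 was then -0.11 in HQHF against control.

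Signs turned for small log2 differences; the cause was not tested. Zhx2 in HFD was 0.10 with all 12 libraries and 0.52 with library totals, and with 1 library left out ranged from -0.19 to 0.072 (0.0717 without HFD 3, 0.0044 without HFD 4). Zhx2 with HQHF was -0.41 with library totals and with 1 library left out ranged from -0.0095 (without HFD 3) to 0.25. With library totals Stat5b was 0.39 in HFD and -0.43 with HQHF, Socs2 0.0267 in HFD and Alb -0.18 with HQHF (-0.0242 with all 12 libraries). In HQHF against control, with 1 library left out, Mup20 ranged from -0.27 to 0.36, Mup9 from -0.56 to 2.67, Mup2 from -0.60 to 2.15 and Mup12 from -0.65 to 0.75; each was lowest without HQHF 1 and highest without control 1. Mup20 was also -0.03 without control 4, and Mup12 -0.26 without control 3 and -0.15 without control 4. HFD 4 held 5 to 25 reads each of Mup2, Mup7, Mup12, Mup15 and Mup17, so its values for them carry wide counting error.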
